A study of Homo sapiens with 6 samples.

Results

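The genes described here encode the proteins that mark replication origins, load and fire the replicative helicase, and copy DNA at the fork. A list of 41 such genes was chosen by name, with earlier results of these data known. All 41 had a row among the 17104 genes of the count table. Of the 41, 12 were higher and 1 was lower in cells put through oxygen and glucose deprivation with reperfusion (OGD/R) than in control cells. These shares, 29.3% and 2.44%, stood against 10.2% and 9.48% of all genes, and the changes were small. RPA3, the smallest subunit of the single-strand binding protein RPA, was 47.4% higher, and the sliding clamp gene PCNA was 22.6% higher. Of the genes for the MCM2-7 helicase, MCM7 passed the test, at 12.8% higher. POLE, the catalytic subunit of polymerase epsilon, was 9.0% lower, a call that was kept in 10 of 16 alternative analyses. It was lost when trends with transcript length and GC content were removed (−0.00 on the log2 scale, edgeR adjusted p = 0.966). With these trends removed, RPA3 went from 0.56 to 0.46 and PCNA from 0.29 to 0.14, both still called. RFC4, RFC5 and RPA2, also among the higher genes, lost their calls, and MCM5 gained one.

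RNA was sequenced from cultured cells labelled HBMEC, a line of human brain microvascular endothelial cells. The 3 libraries titled OGD came from cells deprived of oxygen and glucose and then returned to both, and the 3 libraries titled CON from cells in normal culture. The labels give neither the length of the deprivation or reperfusion nor a genetic change, and do not say whether replicates were separate cultures. The p-values therefore measure the spread between these libraries, which may be technical. Each library held 31048662 to 34484647 counts. Of 13 endothelial markers, 4 had a row (CDH5, ESAM, ROBO4 and EGFL7), and the defining markers PECAM1, VWF and KDR had none and were not analysed here. Of 12 epithelial markers, 8 had a row, and their summed level was 3048 to 3104 CPM after OGD/R and 2485 to 2711 CPM in control, against 203 to 210.4 CPM and 198 to 215 CPM for the 4 endothelial ones. The part of epithelial markers in the results below was not tested.

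Replication is prepared before S phase, when the origin recognition complex (ORC), CDC6 and CDT1 load the MCM2-7 helicase onto DNA, a step called licensing that geminin blocks by binding CDT1. At firing, CDC45 and the GINS complex join MCM2-7 to form the active helicase, polymerase alpha-primase lays down primers, and polymerases epsilon and delta extend them on the leading and lagging strands. PCNA, loaded by replication factor C (RFC), tethers the polymerases, FEN1 and DNA ligase 1 join Okazaki fragments, and RPA coats exposed single strands. Many of these genes are known targets of the E2F transcription factors and peak near the start of S phase, while genes of mitosis peak later and often carry a cell cycle genes homology region (CHR).

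Promoter letters of 4 members and 1 mitotic gene, picked by name, are shown as examples of the motifs marked below. A start with no match in its stretch was not printed, so these stretches do not compare the classes. Each stretch is the 250 bases before a start annotated by RefSeq on GRCh38.p14, written in the direction of the gene. The lengths of distinct GENCODE 29 exon intervals within these bases sum to 0 for MCM6, 91 for PCNA (of PCNA and CDS2), 45 for GINS2, 45 for POLE and 26 for CDC20. Intervals were not merged, so a base under more than 1 interval is counted more than once. Capitals mark an E2F octamer in the members (TTTCCCGC, TTTCGCGC, TTTGCCGC or TTTGGCGC, on either strand) and a CHR hexamer in CDC20 (TTTGAA, on either strand). MCM6 held 2 stretches of capitals, each made of 2 overlapping octamers on opposite strands.
MCM6 (chr2:135876444-135876693, minus strand): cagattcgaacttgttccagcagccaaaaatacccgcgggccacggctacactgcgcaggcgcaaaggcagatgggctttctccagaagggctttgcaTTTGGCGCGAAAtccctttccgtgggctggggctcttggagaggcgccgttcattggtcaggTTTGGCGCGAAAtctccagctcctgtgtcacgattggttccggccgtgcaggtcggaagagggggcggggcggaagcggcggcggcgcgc
PCNA (chr20:5126623-5126872, minus strand): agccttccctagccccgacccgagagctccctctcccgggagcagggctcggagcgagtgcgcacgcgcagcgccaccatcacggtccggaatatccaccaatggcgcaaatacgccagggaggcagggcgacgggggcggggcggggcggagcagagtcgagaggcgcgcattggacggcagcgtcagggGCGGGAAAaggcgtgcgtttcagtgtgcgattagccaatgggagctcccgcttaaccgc
GINS2 (chr16:85688955-85689204, minus strand): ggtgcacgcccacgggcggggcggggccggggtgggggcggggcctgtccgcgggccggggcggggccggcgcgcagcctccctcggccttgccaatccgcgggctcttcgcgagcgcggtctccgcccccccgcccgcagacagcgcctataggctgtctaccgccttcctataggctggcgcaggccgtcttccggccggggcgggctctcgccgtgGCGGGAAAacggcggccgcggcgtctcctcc
POLE (chr12:132687343-132687592, minus strand): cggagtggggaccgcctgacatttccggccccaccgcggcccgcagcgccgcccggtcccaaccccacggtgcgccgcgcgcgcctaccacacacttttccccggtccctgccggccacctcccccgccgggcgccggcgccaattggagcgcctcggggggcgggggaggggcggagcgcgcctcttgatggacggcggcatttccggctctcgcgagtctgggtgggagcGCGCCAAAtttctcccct
CDC20 (chr1:43358731-43358980, plus strand): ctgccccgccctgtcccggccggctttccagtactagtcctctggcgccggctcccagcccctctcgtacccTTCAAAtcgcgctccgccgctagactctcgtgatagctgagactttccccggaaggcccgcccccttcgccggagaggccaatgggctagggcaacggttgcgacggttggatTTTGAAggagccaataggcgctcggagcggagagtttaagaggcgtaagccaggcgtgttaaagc

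Promoter windows, from 250 bases before to 50 after the start, were available for 35 of the 41 members. An E2F octamer was found in 18 of these 35 genes (51.4%), against 6.53% of the 11509 measured genes with a window and 3.31% of all 35116 windows. The CHR hexamer was found in 0 of the 35 members, against 14 of 21 mitotic genes with a window (66.7%), 13.6% of the measured genes and 15.2% of all windows. A CCAAT box (CCAAT on either strand) was found in 21 of the 35 members (60.0%), in 18 of the 21 mitotic genes (85.7%), in 42.4% of the measured genes and in 34.6% of all windows. An octamer and a CCAAT box overlapped in 1 member, MCM7. Among members, an E2F octamer was present in 5 of 10 genes that were higher after OGD/R and in 12 of 24 that did not pass. POLE, which was lower, also held one. A match is a stretch of letters and was not shown to be a bound site.

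**Figure D1:**
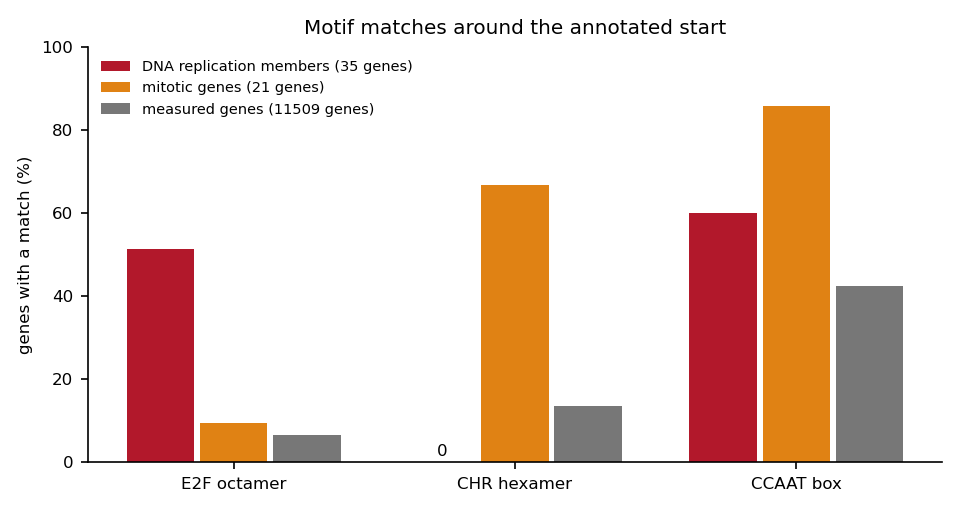
Share of genes (%, y axis) with at least 1 match of each motif (x axis) in a promoter window, for the 35 DNA replication members, 21 mitotic genes and 11509 measured genes that have a window. The bars for the members stand at 51.4%, 0 and 60.0%.

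The comparison between OGD/R and control asks which of these genes differ in transcript level. Levels are CPM, counts scaled to each library's TMM-adjusted total. A fold change is given on the log2 scale, positive where OGD/R was higher, and a gene was called changed at an edgeR quasi-likelihood adjusted p under 0.05, adjusted over all 17104 genes. Of the 41 members, 12 were higher (29.3%), against 10.2% of all genes tested, and 1 was lower (2.44%), against 9.48% of all genes. The members were chosen with earlier results of these data known, and this contrast carries no test. Every member had at least 282 counts in each library, while all genes include weaker ones, such as CHTF8 with 16 to 38. The median log2 fold change was 0.10 over the members and −0.00 over all genes. A fold change above 0 was found for 37 members, and 40 of the 41 had an absolute value under 0.3. The 3 OGD/R libraries all lay above the 3 control libraries in 21 members (16.4% of all genes did so) and all below in 1 (16.6% of all genes). In bulk RNA, a larger share of cells in S phase and more transcript per cell cannot be told apart.

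Over all 41 members the summed level was 3862, 3858 and 3876 CPM in the OGD/R libraries, against 3507, 3682 and 3599.9 CPM in the control libraries. Every OGD/R library thus stood above every control library, with means 7.49% apart, and the control libraries were the more spread. An exact permutation test, two-sided, gave p = 0.1, the smallest value that 20 splits allow. In each library the members were also set against their own mean over the 6 libraries. Of the 41, 30, 34 and 33 were above it in OGD/R replicates 1, 2 and 3, and 8, 16 and 5 in control replicates 1, 2 and 3. The same share over all genes was not computed, and the 41 members share the same 6 libraries. Mean levels over the 6 libraries ran from 10.2 CPM for POLA2 to 346 CPM for MCM7, and the lowest count of a member in any library was 282.

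**Figure D2:**
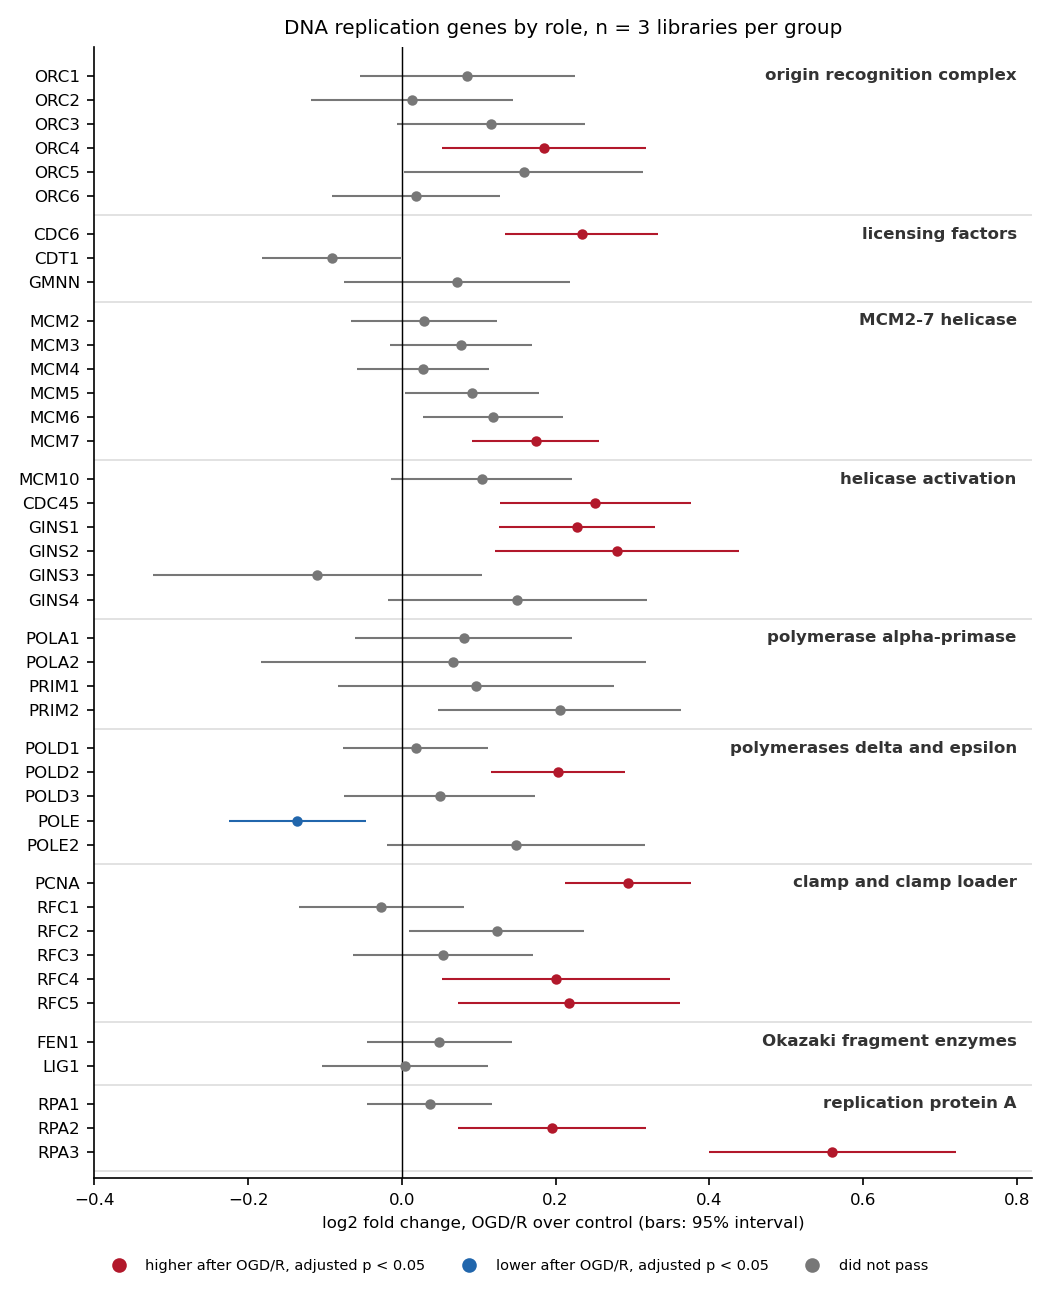
Log2 fold change of OGD/R over control (x axis) with its 95% interval for each of the 41 members, grouped by role down the page, from 3 libraries per group. Red points passed the test as higher (12 genes), the blue point as lower (POLE), and grey points did not pass; RPA3 at 0.56 lies apart from all other members.

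Among the 6 ORC genes, ORC4 was higher and the others did not pass, with a median log2 fold change of 0.10. ORC1, the ATPase subunit whose level is known to follow the cell cycle, had 40.7, 38.8 and 37.2 CPM in the OGD/R libraries, against 34.2, 37.1 and 38.7 CPM in the control libraries. The groups overlapped, and the log2 fold change of 0.09 ± 0.07 did not pass (95% interval −0.05 to 0.23, edgeR adjusted p = 0.448). ORC4 (ENSG00000115947), another ATPase-fold subunit, had 42.3, 43.4 and 45.3 CPM in the OGD/R libraries, against 38.5, 39.3 and 37.5 CPM in the control libraries. All OGD/R libraries were above all control libraries, with a log2 fold change of 0.19 ± 0.07 SE, edgeR adjusted p = 0.0391. This call ended without OGD/R replicate 2 (adjusted p 0.0914) or 3 (0.170), without control replicate 1 (0.0624) or 3 (0.133) and with total-count scaling (0.0923); the 16 alternatives spanned 0.00554 to 0.17. ORC6, the smallest ORC subunit, had 69.9, 68.7 and 66.5 CPM in the OGD/R libraries, against 67.3, 67.3 and 67.8 CPM in the control libraries. Its groups overlapped and its interval was narrow, at −0.09 to 0.13 around 0.02, and the sign turned with total-count scaling (−0.01) and after the length and GC correction (−0.08). ORC2 (0.01), ORC3 (0.12) and ORC5 (0.16) did not pass. After the length and GC correction ORC3 was at 0.01 and ORC5 at 0.04, and the sign of ORC2 turned under 5 alternatives.

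Of the 3 licensing genes, CDC6 was higher. CDC6 (ENSG00000094804), the ATPase that brings MCM2-7 to ORC, had 98.1, 102 and 102 CPM in the OGD/R libraries, against 84.6, 83.3 and 88.6 CPM in the control libraries. The groups were well apart, and the log2 fold change was 0.23 ± 0.05 SE, edgeR adjusted p = 0.000362. CDT1, its partner in loading, had 172, 165 and 155 CPM in the OGD/R libraries, against 169.5, 176 and 179.5 CPM in the control libraries. The groups overlapped and the log2 fold change was −0.09 ± 0.04 (adjusted p = 0.158); with total-count scaling it passed as lower (−0.12, adjusted p 0.0492), and the 16 alternatives spanned 0.0492 to 0.573. The count ratio of CDC6 to CDT1, which does not depend on scaling, was 0.569, 0.618 and 0.654 in the OGD/R libraries and 0.499, 0.474 and 0.493 in the control libraries, without overlap. This and the other ratios below were picked after the values were seen, have no test and are not corrected for transcript length. GMNN, which encodes geminin, had 32.8, 34.5 and 34.2 CPM in the OGD/R libraries, against 30.5, 34.9 and 31.1 CPM in the control libraries. Its groups overlapped, and the log2 fold change was 0.07 ± 0.07 (adjusted p = 0.565) but −0.10 after the length and GC correction.

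The 6 genes of the MCM2-7 ring, whose products assemble as a hexamer with 1 copy of each, had fold changes of 0.03 to 0.17 on the log2 scale, and 1 passed. MCM7 (ENSG00000166508) had 367, 359 and 375 CPM in the OGD/R libraries, against 312, 341 and 323 CPM in the control libraries. The lowest OGD/R library was above the highest control library, and the log2 fold change was 0.17 ± 0.04 SE, edgeR adjusted p = 0.0014. Its exons share 8.9% of their bases with AP4M1, and reads of such bases could belong to either gene. MCM6 had 135, 146 and 144 CPM in the OGD/R libraries, against 127, 132 and 132 CPM in the control libraries. The groups did not overlap, and 0.12 ± 0.05 missed the threshold (adjusted p = 0.0587), although 4 alternatives called it, among them DESeq2 (0.0498; the 16 alternatives spanned 0.0328 to 0.248).

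MCM5 had 195, 189.5 and 198 CPM after OGD/R and 173, 189 and 185 CPM in control. Its groups did not overlap by a small margin, and 0.09 ± 0.04 did not pass (adjusted p = 0.143); after the length and GC correction it did, at 0.15 (adjusted p 0.00198; the 16 alternatives spanned 0.00109 to 0.424). MCM3 had 127, 131 and 127 CPM after OGD/R and 118, 127 and 121 CPM in control, a log2 fold change of 0.08 ± 0.05 that did not pass (adjusted p = 0.264). MCM2 had 109.9, 109.9 and 111 CPM after OGD/R and 105, 112 and 107 CPM in control and MCM4 had 231, 215 and 213 CPM after OGD/R and 212, 218 and 216 CPM in control. Both overlapped between groups, with intervals of −0.07 to 0.12 around 0.03 and of −0.06 to 0.11 around 0.03, and both turned to about −0.00 with total-count scaling. The exons of MCM2 share 23.6% of their bases with another gene. The MCM7 to MCM4 count ratio was 1.59, 1.67 and 1.76 in the OGD/R libraries and 1.47, 1.56 and 1.49 in the control libraries, without overlap.

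Per kilobase of each gene's longest annotated transcript, MCM7 was the most abundant of the 6, at 119 ± 2.67 CPM per kb after OGD/R and 105 ± 4.66 in control (mean ± SD, n = 3 each). MCM4 followed at 52.5 ± 2.43 and 51.5 ± 0.752, then MCM5 at 42.2 ± 0.979 and 39.7 ± 1.74, MCM3 at 40.1 ± 0.666 and 37.97 ± 1.41, MCM6 at 37.9 ± 1.47 and 34.9 ± 0.721, and MCM2 at 30.4 ± 0.179 and 29.8 ± 0.98. The order of the 6 means was the same in both groups. In control the mean of MCM3 lay within the SD around the mean of MCM5, but not the reverse. These levels depend on the annotated length, which need not be that of the transcripts in these cells.

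Of the 6 helicase activation genes 3 were higher (50%, against 10.2% of all genes), also with the length and GC correction. Their median of 0.19 was the highest of the 4 roles with 6 genes, with 0.16 for the clamp and clamp loader. CDC45 (ENSG00000093009), which completes the active helicase, had 64.7, 65.9 and 68.05 CPM in the OGD/R libraries, against 48.9, 58.6 and 59.3 CPM in the control libraries. Control replicate 1 was lower than the other two, the groups did not overlap, and the log2 fold change was 0.25 ± 0.06 SE, edgeR adjusted p = 0.00209. GINS1 (ENSG00000101003) had 96.3, 94.98 and 96.2 CPM after OGD/R and 82.8, 77.7 and 85.01 CPM in control, with a log2 fold change of 0.23 ± 0.05 SE, edgeR adjusted p = 0.000659. GINS2 (ENSG00000131153) had 30.2, 31.2 and 29.999 CPM after OGD/R and 24.2, 23.5 and 27.6 CPM in control, with 0.28 ± 0.08 SE, edgeR adjusted p = 0.00744. For both GINS genes every OGD/R library was above every control library. The other GINS subunits did not pass: GINS3 had a value of −0.11 ± 0.11 with a wide interval of −0.32 to 0.10, and GINS4 of 0.15 ± 0.08, and the exons of GINS4 share 23.6% of their bases with another gene. The GINS2 to GINS3 count ratio was 2.19, 2.03 and 2.47 in the OGD/R libraries and 1.52, 1.56 and 2.02 in the control libraries, a near-touching pair of groups. MCM10, which acts when the helicase starts to unwind, had 60.1, 59.1 and 63.2 CPM after OGD/R and 59.8, 55.4 and 54.6 CPM in control. Its groups overlapped and it did not pass (0.10 ± 0.06, adjusted p = 0.235).

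**Figure D3:**
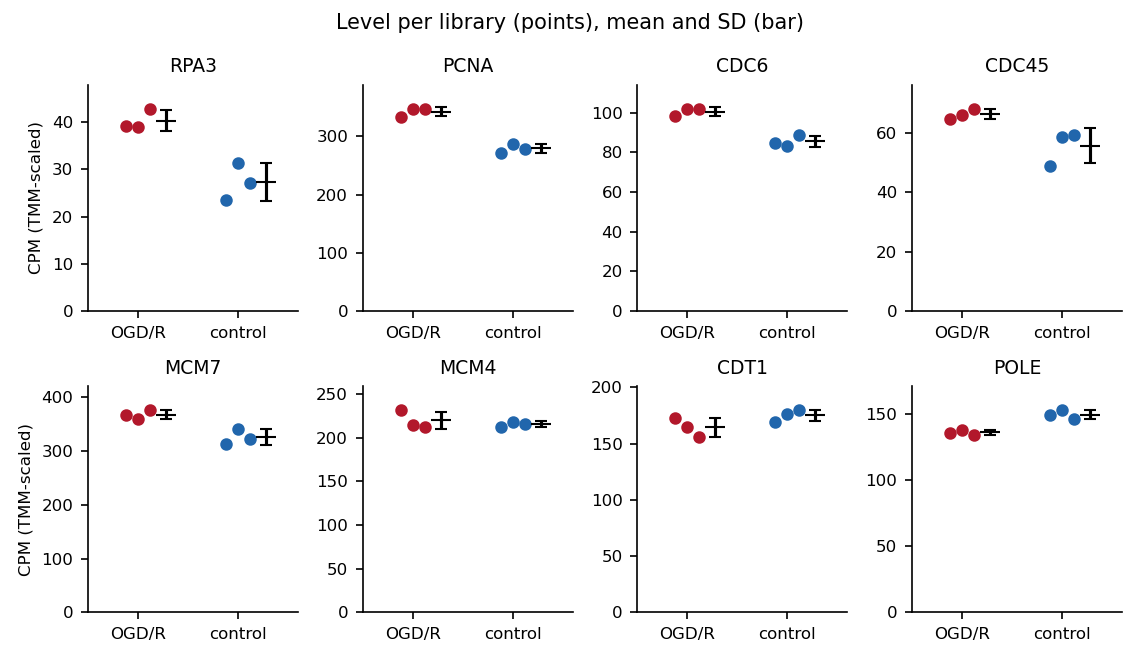
Level in TMM-scaled CPM (y axis, from 0) in each of the 3 OGD/R libraries (red, left) and 3 control libraries (blue, right) for 8 members, with the mean and SD beside the points. RPA3, PCNA, CDC6, CDC45 and MCM7 do not overlap between groups and are higher after OGD/R, POLE does not overlap and is lower, and MCM4 and CDT1 overlap.

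None of the 4 genes of polymerase alpha-primase passed, at a median of 0.09; at an unadjusted p under 0.05 the count was 1, PRIM2, which upper-quartile scaling also called. POLA1, the catalytic subunit that extends primers with DNA, had 34.2, 33.999 and 34.4 CPM in the OGD/R libraries, against 32.02, 32.2 and 32.9 CPM in the control libraries. The groups were narrow and did not overlap, but 0.08 ± 0.07 did not pass (adjusted p = 0.488). PRIM1, the catalytic subunit of primase, had 19.9, 22.9 and 20.9 CPM in the OGD/R libraries, against 20.9, 20.1 and 18.6 CPM in the control libraries. Its groups overlapped, the log2 fold change was 0.10 ± 0.09, and it was −0.07 after the length and GC correction. Its exons share 21.6% of their bases with another gene. PRIM2, the large primase subunit, had a value of 0.21 ± 0.08 (adjusted p = 0.0587), and of 0.10 after the correction. POLA2, the accessory subunit of polymerase alpha, had a value of 0.07 ± 0.12 at the lowest level of all members, and 35.1% of its exon bases, the largest share among the members, lie in another gene too.

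Of the polymerase delta and epsilon genes, POLD2 was higher and POLE was lower. POLD2 (ENSG00000106628), an accessory subunit of polymerase delta, had 175, 173 and 169.8 CPM in the OGD/R libraries, against 146, 153 and 151 CPM in the control libraries. The groups were far apart relative to their spread, with a log2 fold change of 0.20 ± 0.04 SE, edgeR adjusted p = 0.000389. POLE (ENSG00000177084), the catalytic subunit of the leading-strand polymerase, had 136, 138 and 134 CPM in the OGD/R libraries, against 149, 153 and 146 CPM in the control libraries. All OGD/R libraries were below all control libraries, with a log2 fold change of −0.14 ± 0.04 SE, edgeR adjusted p = 0.0221. POLE has the longest annotated transcript of the members, at 8011 nucleotides, and its value was −0.00 after the length and GC correction (adjusted p 0.966). The call also ended without any 1 of the 3 OGD/R libraries (adjusted p 0.0582, 0.0547 and 0.0917 without replicate 1, 2 and 3) and without control replicate 2 (0.0777). The 16 alternatives spanned 0.00481 to 0.971.

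POLE2, its second subunit, had 24.8, 22.99 and 25.4 CPM after OGD/R and 21.1, 22.3 and 22.6 CPM in control. The groups did not overlap, yet 0.15 ± 0.08 did not pass (adjusted p = 0.23), and the value was 0.02 after the length and GC correction. POLD3, an accessory subunit of polymerase delta, had 56.5, 49.5 and 55.7 CPM after OGD/R and 51.7, 51.97 and 52.7 CPM in control. Its groups overlapped (0.05 ± 0.06), as did those of POLD1, the catalytic subunit (0.02 ± 0.05, 95% interval −0.08 to 0.11), whose sign turned with total-count scaling (−0.01) and without OGD/R replicate 1 (−0.02).

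In the clamp and clamp loader group 3 of 6 genes were higher (50%, against 10.2% of all genes). With the length and GC correction the count was 1. PCNA (ENSG00000132646) had 334, 346 and 348 CPM in the OGD/R libraries, against 272, 287 and 279 CPM in the control libraries. The OGD/R libraries were all higher by several times the spread, and the log2 fold change was 0.29 ± 0.04 SE, edgeR adjusted p = 2.00e-07. After the length and GC correction it was 0.14 and still passed (adjusted p 0.00118). Per kilobase PCNA was the most abundant member, at 252 ± 5.46 CPM per kb after OGD/R and 206 ± 5.47 in control. This rank, too, depends on the annotated length.

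RFC1, the large subunit of the clamp loader, had 83.9, 82.6 and 88.03 CPM in the OGD/R libraries, against 92.5, 86.9 and 80.1 CPM in the control libraries. Its groups overlapped, and the log2 fold change was −0.03 ± 0.05 (adjusted p = 0.794), with a sign that turned without control replicate 1 (0.03). RFC4 (ENSG00000163918), a small subunit of the loader, had 36.5, 40.6 and 40.6 CPM in the OGD/R libraries, against 33.03, 38.1 and 31.2 CPM in the control libraries. The groups overlapped, and the log2 fold change was 0.20 ± 0.07 SE, edgeR adjusted p = 0.0466. RFC5 (ENSG00000111445), also a small subunit, had 37.7, 34.1 and 37.3 CPM in the OGD/R libraries, against 30.03, 31.2 and 32.6 CPM in the control libraries. Its groups did not overlap, and the log2 fold change was 0.22 ± 0.07 SE, edgeR adjusted p = 0.0246.

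Both RFC calls were close to the threshold. RFC4 was called in 7 of 16 alternatives and RFC5 in 10, with adjusted p values of 0.00433 to 0.623 and 0.0191 to 0.174. For RFC4 the call ended with DESeq2 (adjusted p 0.0620), limma-voom (0.0562) and total-count scaling (0.0906). It also ended with the length and GC correction (0.06, 0.623), and without OGD/R replicate 2 (0.185) or 3 (0.165) or control replicate 1 (0.140) or 3 (0.282). For RFC5 it ended with total-count scaling (0.0579), after the correction (0.13, 0.174), and without OGD/R replicate 1 (0.101) or 3 (0.101) or control replicate 1 (0.0880). RFC2 (0.12) and RFC3 (0.05) did not pass, and after the correction RFC2 was at 0.04 and RFC3 at −0.06.

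Neither of the Okazaki fragment enzymes passed; the count was also 0 at an unadjusted p under 0.05 and in all 16 alternatives, DESeq2 and limma-voom included. FEN1, the flap nuclease, had 136, 136 and 138 CPM in the OGD/R libraries, against 123, 139.5 and 134 CPM in the control libraries. LIG1, the ligase that seals the fragments, had 95.9, 97.7 and 96.97 CPM in the OGD/R libraries, against 87.7, 107 and 95.2 CPM in the control libraries. Both groups of each gene overlapped, with control replicates more spread than OGD/R replicates. The log2 fold changes were 0.05 ± 0.05 and 0.00 ± 0.05, with 95% intervals of −0.05 to 0.14 and −0.10 to 0.11, and the sign of LIG1 turned under 4 alternatives.

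The 3 subunits of RPA, which form a heterotrimer, had unequal values. RPA3 (ENSG00000106399) had 39.1, 38.996 and 42.9 CPM in the OGD/R libraries, against 23.5, 31.5 and 27.05 CPM in the control libraries. Even the lowest OGD/R library was above the highest control library, and the log2 fold change was 0.56 ± 0.08 SE, edgeR adjusted p = 5.35e-07. After the length and GC correction it was 0.46 (adjusted p 3.39e-06), and RPA3 was called in all 16 alternatives. RPA2 (ENSG00000117748), the subunit that is phosphorylated on replication stress, had 56.9, 56.6 and 58.9 CPM in the OGD/R libraries, against 47.3, 53.5 and 49.8 CPM in the control libraries. The groups did not overlap, with a log2 fold change of 0.20 ± 0.06 SE, edgeR adjusted p = 0.0163, and of 0.09 after the correction (adjusted p 0.243). The RPA2 call also ended without OGD/R replicate 3 (0.0780), control replicate 1 (0.0875) or control replicate 3 (0.0622); the 16 alternatives spanned 0.00417 to 0.243.

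RPA1, the large DNA-binding subunit, had 264, 267 and 271 CPM in the OGD/R libraries, against 255, 267 and 260.1 CPM in the control libraries. Its groups overlapped and it did not pass (0.04 ± 0.04, 95% interval −0.05 to 0.12, adjusted p = 0.606). The RPA3 to RPA1 count ratio was 0.148, 0.146 and 0.158 in the OGD/R libraries and 0.0922, 0.118 and 0.104 in the control libraries. The groups did not overlap, and the mean ratio after OGD/R was 1.44 times that in control. The annotated transcripts differ in length, at 2020 nucleotides for RPA3 and 4340 for RPA1. After the length and GC correction the log2 fold changes were 0.46 for RPA3 and 0.06 for RPA1. Per kilobase, RPA3 was the least abundant of the 3, at 19.97 ± 1.09 CPM per kb after OGD/R and 13.5 ± 1.97 in control. RPA1 had 61.6 ± 0.777 and 60.1 ± 1.36. This order depends on the longest annotated transcript, which need not be the one in these cells, and the correction uses the same lengths.

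Transcript length moved with the groups and with these values. Over the 10859 protein-coding genes with an average log2 CPM above 2, each library's deviation from the mean level had a Spearman rho with transcript length of −0.28, −0.33 and −0.23 in OGD/R replicates 1, 2 and 3, and of 0.44, 0.04 and 0.29 in control replicates 1, 2 and 3. Among the 41 members, the rho between log2 fold change and length was −0.41, and 0.15 after the length and GC correction. The 41 points share the same 6 libraries. The 12 members that were higher had a median length of 2304 nucleotides and the 28 that did not pass of 3379. With the correction, 10 members were higher (10.7% of all genes) and 0 lower (9.27% of all genes). Of the 13 calls, 9 were kept, in the same direction: ORC4, CDC6, MCM7, CDC45, GINS1, GINS2, POLD2, PCNA and RPA3. RFC4, RFC5, RPA2 and POLE kept their sign but were no longer called, and MCM5 was added. The median over the members was then 0.07.

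**Figure D4:**
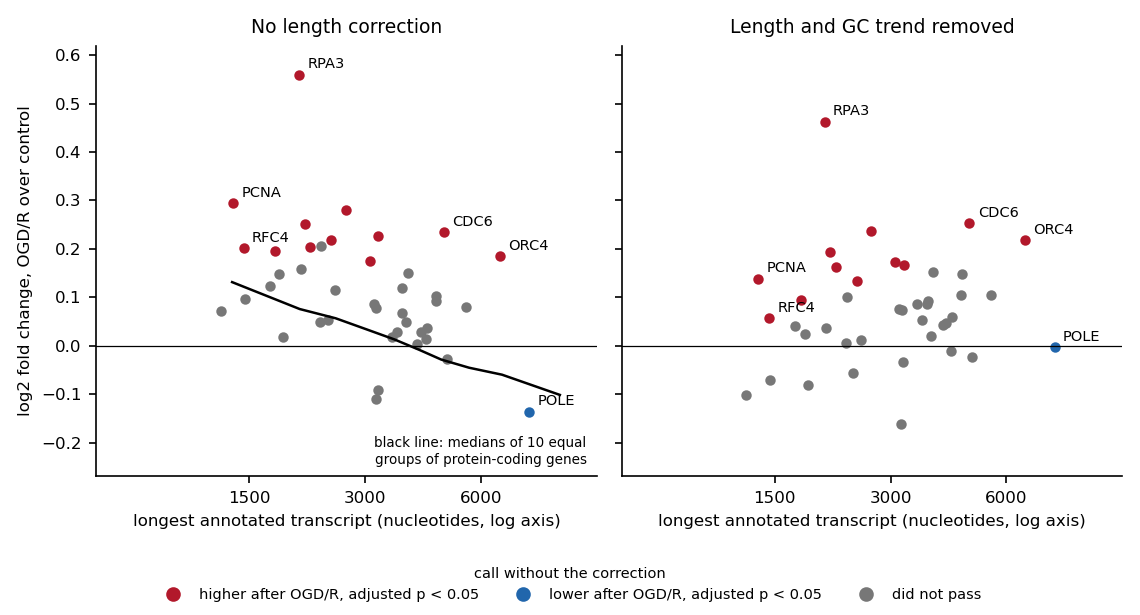
Log2 fold change of OGD/R over control (y axis) against the length of the longest annotated transcript (x axis, log scale) for the 41 members, before (left) and after (right) a length and GC trend was removed from each library. On the left the longest member, POLE, lies at −0.14 and the black line of medians over the 10859 protein-coding genes falls with length; on the right POLE lies at −0.00 and RPA3 at 0.46.

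Among other genes of the pathway, a list of 41 further replication factors had 40 measured members, of which 10 were higher (25.0%, against 10.2% of all genes) and 1 lower (2.5%, against 9.48%), with a median of 0.07. With the length and GC correction 14 were higher and 2 lower. POLE3, a histone-fold subunit of polymerase epsilon, averaged 83.5 ± 3.97 CPM after OGD/R and 70.4 ± 1.84 CPM in control (SD, n = 3 each), a log2 difference of 0.25 ± 0.05 SE, edgeR adjusted p = 0.00047. RNASEH2C, a subunit of the ribonuclease that removes RNA from DNA, had 34.2 ± 1.85 CPM after OGD/R and 26.6 ± 3.34 CPM in control (0.36 ± 0.08), and its exons share 28.2% of their bases with KAT5. SLBP, which processes histone transcripts in S phase, was higher by 0.21, DBF4B, an activator of the kinase CDC7, by 0.24, and SSRP1, a histone chaperone subunit, by 0.15 on the log2 scale. FBH1, a helicase that limits recombination, was the gene that was lower (−0.16 ± 0.06, adjusted p = 0.0384); it was called in 10 of 16 alternatives, and not by DESeq2 or limma-voom.

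Enzymes that supply deoxynucleotides had 9 of 14 measured members higher (64.3%, against 10.2% of all genes) and 0 lower (against 9.48%), with a median of 0.15. The length and GC correction gave 8 higher and 1 lower. Thymidine kinase TK1 had 262 ± 2.33 CPM after OGD/R and 187 ± 11.2 CPM in control (0.48 ± 0.04). The ribonucleotide reductase subunit RRM1 (0.33), the dUTPase DUT (0.36) and the thymidylate synthase TYMS (0.32, with 46.6% of its exon bases shared with ENOSF1) were also higher. A list of G1/S cyclins, kinases and E2F genes had 2 of 20 higher and 2 lower (10% each, near the 10.2% and 9.48% of all genes), with a median of 0.03. With the length and GC correction 1 was higher and 3 lower, and the median was −0.01. FBXO5 (0.20), an inhibitor of the anaphase-promoting complex, and the kinase gene CDK2 (0.17) were higher, while cyclin D1 (CCND1, −0.19) and its partner kinase CDK6 (−0.20) were lower. After the correction FBXO5 no longer passed (0.09, edgeR adjusted p = 0.267), and CDK6 was at −0.11 and still passed. E2F1 itself had 98.3, 90.9 and 88.1 CPM after OGD/R and 84.5, 90.9 and 87.8 CPM in control and did not pass (0.08 ± 0.05, adjusted p = 0.351).

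Mitotic genes had 23 of 25 measured members higher (92.0%, against 10.2% of all genes) and 0 lower (against 9.48%), with a median of 0.34. The replication members had 12 of 41 higher and a median of 0.10. The mitotic counts with the length and GC correction were 23 higher and 0 lower, at a median of 0.33. CCNB1 (0.55), KIF20A (0.64), CDC20 (0.51), AURKA (0.50) and BIRC5 (0.48) had the smallest p of that list. The summed level of the 25 mitotic genes divided by that of the 41 replication members was 1.51, 1.496 and 1.52 in the OGD/R libraries and 1.33, 1.26 and 1.27 in the control libraries. The groups did not overlap in this ratio, which does not depend on scaling; it carries no test, since the lists were chosen with earlier results known.

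**Figure D5:**
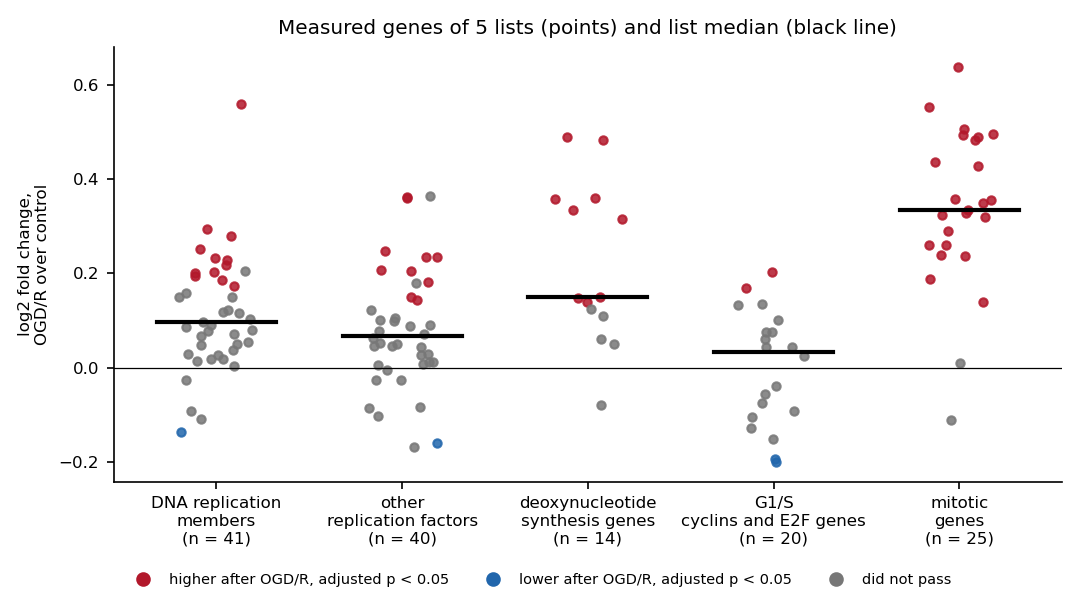
Log2 fold change of OGD/R over control (y axis) of each measured gene in 5 lists (x axis), with the list median as a black line; red points passed as higher, blue as lower and grey did not pass. The medians are 0.10 for the 41 replication members, 0.07 for other replication factors, 0.15 for deoxynucleotide synthesis, 0.03 for G1/S cyclins and E2F genes and 0.34 for mitotic genes.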

How the data were processed

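The authors deposited raw read counts for human Ensembl genes in 6 columns. Trimmomatic, HISAT2, SAMtools, featureCounts and edgeR were used, per the submitters' processing notes. Versions, settings and use of strand are not given in the sources used here. The notes name GRCm38, a mouse build, so the build behind the counts is uncertain and the only coordinates printed are those of RefSeq promoters. All 17104 genes reached 10 counts in 3 or more libraries, so weakly expressed genes are not analysed here.

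Members and gene lists were chosen with earlier results of these data known. Counts were TMM-scaled and tested with edgeR 4.0.16 (R 4.3.3): robust quasi-likelihood fit, 3 OGD/R against 3 control libraries, no replicate block, two-sided, Benjamini-Hochberg over all 17104 genes; filterByExpr (minimum count 10) removed 0. Standard errors come from the fold change and the F statistic. The fit was tested on simulated counts. Count differences between replicates exceeded sampling noise (chi-square over its degrees of freedom 4.07 to 7.42, and 16.0 to 23.5 between groups), so all 6 libraries were kept. Alternatives were 3 other scalings (RLE, total counts, upper quartile), limma-voom (limma 3.58.1), DESeq2 1.42.0, 2 filters, a replicate block, a length and GC correction (mgcv 1.9.3 trends on GENCODE 29 transcripts, known for 96.6% of genes), both together, and leaving out each library. Genes with values in every library were fixed by name or by an adjusted p under 0.05; from 3 other lists, the 5 with the smallest p, of which 1 gene is not reported here; other names were picked after their values were seen.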

Additional observations from a re-analysis of the deposited data

How the results depend on the processing

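The members that were higher numbered 12, and 9 to 14 under other scalings, tools, filters and the correction. CDC6, MCM7, CDC45, GINS1, GINS2, POLD2, PCNA and RPA3 were called in all 16 alternatives. Leaving out 1 library gave 8 to 13, with 8 without OGD/R replicate 3 and without control replicate 1. The lower count of 1 was 2 with total-count scaling (CDT1 added), 0 with the length and GC correction, 0 with correction and replicate block together, and 0 to 1 with 1 library left out. The median log2 fold change of 0.10 was 0.066 with total-count scaling and 0.10 to 0.12 with 1 library left out. Total-count scaling moved the split of all genes to 1383 higher and 2098 lower (39.7% higher, against 51.9% with TMM). The 1 lower gene among other replication factors became 0 with DESeq2, 0 with limma-voom, 2 with the length and GC correction, 2 with correction and block, and 0 to 1 with 1 library left out. The 10 higher ones became 14 with the length and GC correction, 14 with correction and block, and 7 to 11 with 1 library left out. Over all genes, 1079 to 1527 were lower with 1 library left out (1079 without control replicate 3). The difference in summed CPM, 269, was 225 to 312 with 1 library left out. It was 191 with total-count scaling and 221 with the length and GC correction.

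With the replicate number as a block, 12 members were higher and 1 lower; over all genes 1827 were higher and 1702 lower. Deviations of same-numbered libraries correlated at 0.0054, 0.015 and 0.028, low values taken over all genes, weak ones included. All 3 numbers correlated best with their own, so whether the numbers pair the libraries was not settled. Dropping the filter left the tested genes the same. Of 896 single-gene values under the alternatives, 830 kept their direction and side of the threshold, 31 lost a call, 9 gained one and 26 turned sign, none of them called. The length and GC correction, and the correction with the block, turned GMNN (−0.10 and −0.10), ORC2 (−0.010 and −0.010), ORC6 (−0.081 and −0.081), RFC3 (−0.057 and −0.056) and PRIM1 (−0.071 and −0.071). Total-count scaling turned LIG1 (−0.025), MCM2 (−0.00089), MCM4 (−0.0024), POLD1 (−0.012), ORC6 (−0.011) and ORC2 (−0.017). With 1 library left out, values ran over −0.016 to 0.040 for ORC2, −0.011 to 0.050 for MCM4, −0.038 to 0.14 for POLA2, −0.023 to 0.061 for POLD1, −0.077 to 0.026 for RFC1 and −0.059 to 0.087 for LIG1. The cause of these turns was not tested. At this depth, 95% intervals of the 28 members that did not pass reached from −0.32 (GINS3) to 0.36 (PRIM2).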
